A study of Homo sapiens with 28 samples.

Results

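The 48 genes of the proteasome were followed through ER stress in LNCaP, an established cell line from a human metastatic prostate cancer. They were all genes of the count tables whose symbol is PSMA, PSMB, PSMC, PSMD, PSME, PSMF or PSMG followed by a number, 48 of 25369 genes. They comprised 14 genes of the constitutive core particle, 9 genes of the base, 8 genes of the lid, 3 immunoproteasome subunits, 4 activators, 1 inhibitor, 3 chaperones of base assembly and 4 chaperones of core assembly. PSMB11, the catalytic subunit of the thymus, and PSMA8, a testis form of an alpha subunit, completed the set.

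The proteasome degrades proteins that carry ubiquitin chains. Its core particle is a barrel of stacked alpha and beta rings whose catalytic sites belong to PSMB5, PSMB6 and PSMB7, and a cap made of a base of ATPases and a lid recognises, unfolds and feeds in the substrate. In cells exposed to interferon the catalytic subunits can be replaced by PSMB8, PSMB9 and PSMB10, which form the immunoproteasome and shift the peptides offered to MHC class I. The transcription factor NFE2L1, a protein of the endoplasmic reticulum (ER) membrane, is known to raise subunit genes together when proteasome activity is low, and misfolded ER proteins are themselves degraded by the proteasome after export to the cytosol.

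The 28 libraries formed 7 groups of 4, taken from 4 independent experiments by the series' design text. Each group came from LNCaP cells that were transfected with an siRNA, treated for 18 h, with 2 days given between transfection and harvest. Cells of the groups TM siATF4-2 and TM siATF4-3 received an siRNA against ATF4, numbered oligo 1 and oligo 2 in other label fields, with 2.5 µg/mL tunicamycin (TM). Cells of TM siPERK-1 and TM siPERK-3 received an siRNA against EIF2AK3, the gene of the ER stress sensor kinase PERK, with the same dose, and the second of these is called oligo 2 in another label field. TM PERKi siCtrl cells had a non-targeting siRNA, 2.5 µg/mL tunicamycin and 100 nM of the PERK inhibitor GSK2606414. TM siCtrl cells had the non-targeting siRNA and 2.5 µg/mL tunicamycin, and DMSO siCtrl cells had the non-targeting siRNA and the solvent. Tunicamycin blocks N-glycosylation and so overloads the ER with unfolded protein, and ATF4 is a transcription factor whose translation rises when PERK is active. Every group is therefore 1 transfected cell line, and no group was left without siRNA.

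Library totals lay between 10794637 and 17253801 counts. The targeted transcripts followed their labels: EIF2AK3 averaged 24.6 ± 3.99 CPM in TM siPERK-1 and 21.5 ± 2.14 CPM in TM siPERK-3 cells, against 89.1 ± 6.50 CPM in TM siCtrl cells. ATF4 averaged 237 ± 82.3 CPM in TM siATF4-2 and 114 ± 18.9 CPM in TM siATF4-3 cells, against 1510.2 ± 37.4 CPM in TM siCtrl cells (SD, n = 4 each). All 7 luminal prostate markers were tested, with a summed level between 2577 and 6317 CPM by library, and the summed basal and leukocyte markers reached at most 1.66 CPM. Levels here are CPM, counts scaled to library size with TMM factors, given per library in the order of replicates 1 to 4, and a change is called when its edgeR p, adjusted over 14314 genes, is under 0.05. All comparisons with a knockdown or the inhibitor share the TM siCtrl libraries.

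The filter on low counts left 44 of the 48 genes for testing. Per kilobase of exon, the core subunits were the most abundant class, with a median of 111.7 CPM per kb in TM siCtrl and 138.1 CPM per kb in DMSO siCtrl cells. Base and lid subunits had a median of 72.6 CPM per kb in TM siCtrl and 73.2 CPM per kb in DMSO siCtrl cells, and the 7 assembly chaperones 28.2 and 25.6 CPM per kb in the same groups. The highest single level was that of PSMD8, a lid subunit, with 277 CPM per kb in TM siCtrl cells, and that of PSMB4, a structural beta subunit, with 231 CPM per kb in DMSO siCtrl cells. The 48 genes together took 0.542 to 0.562% of all counts in TM siCtrl libraries and 0.657 to 0.688% in DMSO siCtrl libraries, so that the ranges did not overlap. These are shares of raw counts, without the TMM factors, which also differed between the groups. The factors were 0.976 to 0.9951 in TM siCtrl and 1.066 to 1.1 in DMSO siCtrl libraries, so the shares differ more than scaled levels would.

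**Figure D1:**
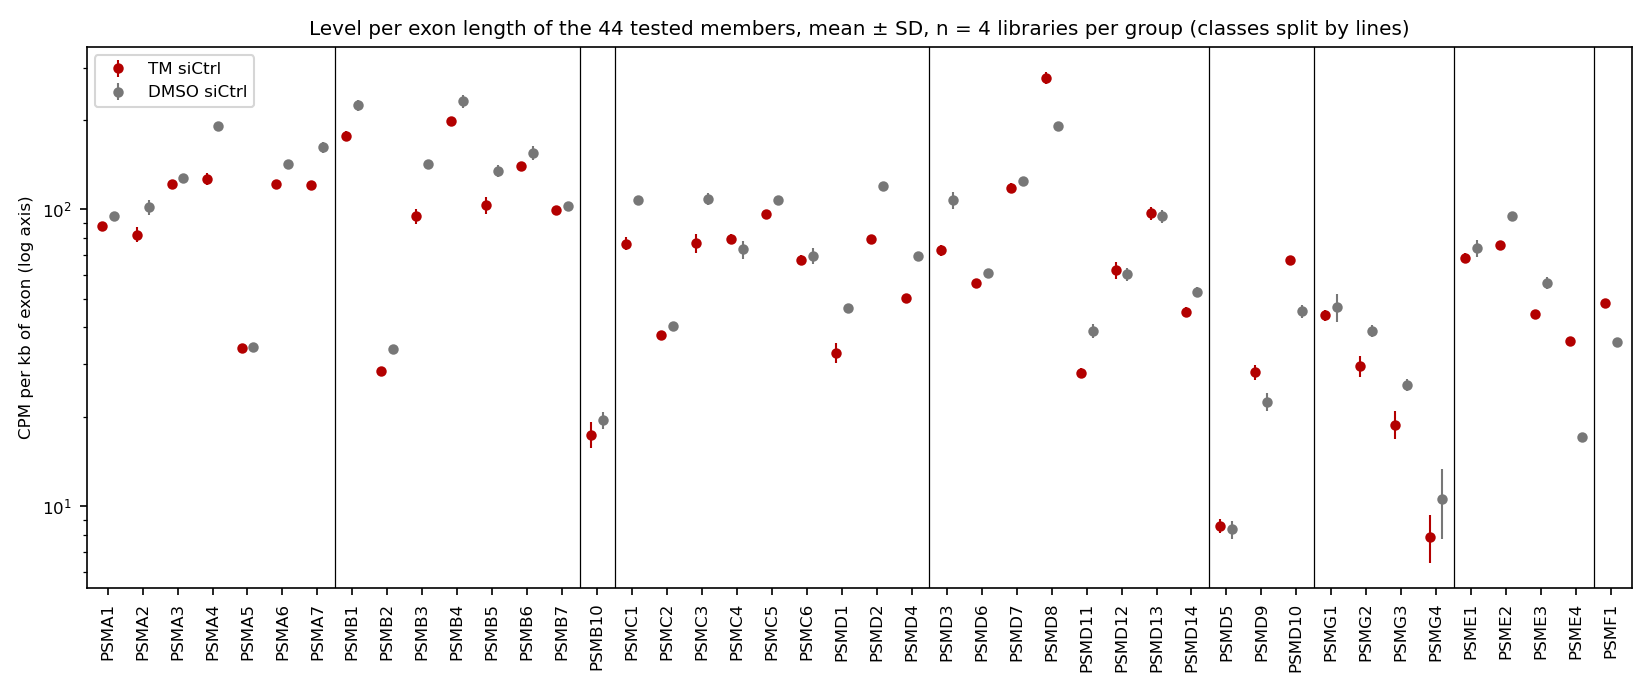
Level of the 44 tested genes in CPM per kilobase of exon (log axis), with red points for TM siCtrl and grey points for DMSO siCtrl, bars as SD over 4 libraries, and vertical lines between the classes. PSMD8 with 277 CPM per kb stood highest in TM siCtrl cells, and PSMB10, the only immunoproteasome subunit tested, had 17.4 CPM per kb there.

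Tunicamycin with control siRNA lowered most subunits of the particle and raised a small group made of 1 base subunit, 1 lid subunit, 2 chaperones of base assembly, 1 activator and the inhibitor. Of the 44 tested genes, 27 fell and 6 rose, and 11 were not called. Over all genes tested, 69% were called in the same comparison, 34.7% lower and 34.3% higher. The median log2 change was -0.19 over the 44 genes and 0.01 over all genes. The summed luminal markers were 3125.3 to 3408.9 CPM in TM siCtrl and 5386.6 to 6317.0 CPM in DMSO siCtrl libraries. Taken singly, 3 of the 7 luminal markers were higher with tunicamycin and 4 were lower. The summed fibroblast markers were 32.54 to 39.41 CPM in TM siCtrl and 17.7 to 21.6 CPM in DMSO siCtrl libraries. Of these fibroblast markers, 1 of 4 was tested and 2 were at 0 in both groups. The part of the luminal and fibroblast markers in the result was not tested. In these bulk samples, fewer cells that make a transcript and less of it per cell cannot be told apart.

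By class, 11 of 14 core genes fell and 0 rose, 7 of 9 base genes fell and 1 rose, and 4 of 8 lid genes fell and 1 rose. Of the 4 chaperones of core assembly, 3 fell and 0 rose, whereas of the 3 chaperones of base assembly 2 rose and 0 fell. Of the 4 activators, 2 fell and 1 rose. The summed level of the 31 core, base and lid genes was 4407.5 to 4571.0 CPM in TM siCtrl and 5107.6 to 5293.4 CPM in DMSO siCtrl libraries.

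The largest rise was that of PSME4, which encodes a nuclear activator of the core particle (chr2:54091204-54197977, minus strand, hg19). PSME4 had 253, 266, 253 and 246 CPM in TM siCtrl libraries, against 124, 122, 124 and 116 CPM in DMSO siCtrl libraries. Every TM siCtrl library stood above every DMSO siCtrl library, and the log2 change was 1.07 ± 0.051 (adjusted p = 2.31e-21). It was also the largest change of the 44 genes in size, as the falls reached a log2 change of -0.60.

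PSMD10, the chaperone of base assembly also called gankyrin (chrX:107327435-107334874, minus strand, hg19), had 104, 108, 107 and 107 CPM in TM siCtrl, against 67.7, 75.9, 72.4 and 69.7 CPM in DMSO siCtrl libraries. PSMD8, a lid subunit that completes lid assembly in yeast (chr19:38865190-38874464, plus strand, hg19), had 432, 400.2, 450.0 and 425 CPM in TM siCtrl, against 284, 296, 297 and 293 CPM in DMSO siCtrl libraries. Neither gene's groups overlapped, and the log2 changes were 0.57 ± 0.051 (adjusted p = 6.13e-13) for PSMD10 and 0.54 ± 0.043 (adjusted p = 1.25e-14) for PSMD8. PSMF1, which encodes the inhibitor PI31, had 192, 177, 186 and 185 CPM in TM siCtrl, against 136, 136, 142 and 136 CPM in DMSO siCtrl libraries. PSMD9, a second chaperone of base assembly, had 69.2, 61.8, 69.4 and 65.0 CPM in TM siCtrl, against 48.9, 50.4, 54.9 and 56.8 CPM in DMSO siCtrl libraries. Both pairs of groups were also separate, with a log2 change of 0.43 ± 0.042 (adjusted p = 7.73e-12) for PSMF1 and 0.33 ± 0.052 (adjusted p = 4.6e-07) for PSMD9. The sixth called rise, of the base ATPase PSMC4, was small (log2 change 0.12 ± 0.045, adjusted p = 0.0177), its groups overlapped, and the call was lost without DMSO siCtrl replicate 1 (adjusted p = 0.15) or TM siCtrl replicate 3 (adjusted p = 0.0705).

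Among the genes that fell, PSMA4, a subunit of the alpha ring, had 145, 157, 152 and 163 CPM in TM siCtrl, against 236, 235, 228 and 234 CPM in DMSO siCtrl libraries. PSMD2, a large scaffold subunit of the base that docks ubiquitin-like proteins, had 244, 246, 257 and 257 CPM in TM siCtrl, against 361, 379.5, 385 and 391 CPM in DMSO siCtrl libraries. Both stood lower in every TM siCtrl library, with log2 changes of -0.60 ± 0.04 (adjusted p = 6.24e-17) for PSMA4 and -0.60 ± 0.038 (adjusted p = 2.32e-17) for PSMD2. PSMB3, a structural beta subunit, had 72.5, 70.5, 78.7 and 79.3 CPM in TM siCtrl, against 112, 118, 110.5 and 111 CPM in DMSO siCtrl libraries. PSMD3, a lid subunit, had 166, 153, 154 and 162 CPM in TM siCtrl, against 214, 235, 245 and 246 CPM in DMSO siCtrl libraries. PSMD1, the second scaffold subunit of the base, had 100.3, 110.5, 106 and 120.1 CPM in TM siCtrl, against 154, 156, 152 and 157 CPM in DMSO siCtrl libraries. None of these groups overlapped either, and the log2 changes were -0.59 ± 0.047 (adjusted p = 2.2e-14) for PSMB3, -0.57 ± 0.047 (adjusted p = 5.7e-14) for PSMD3 and -0.50 ± 0.051 (adjusted p = 1.72e-11) for PSMD1.

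The remaining falls ran from a log2 change of -0.50 for the base ATPase PSMC3 to -0.11 for the base ATPase PSMC2. Calls at the weak end depended on single libraries, and some also on the processing. PSMB6 lost its call without DMSO siCtrl replicate 2 (adjusted p = 0.0638) or TM siCtrl replicate 4 (adjusted p = 0.0716), and PSMG4, a chaperone of core assembly, lost it without DMSO siCtrl replicate 4 (adjusted p = 0.105). The lid subunit PSMD6 lost its call without DMSO siCtrl replicate 1 (adjusted p = 0.0804), TM siCtrl replicate 1 (adjusted p = 0.0749) or TM siCtrl replicate 3 (adjusted p = 0.0888). PSMC2 lost it without DMSO siCtrl replicate 3 (adjusted p = 0.0546) or TM siCtrl replicate 1 (adjusted p = 0.0807). With no filter on low counts, edgeR called neither PSMD6 (adjusted p = 0.063) nor PSMC2 (adjusted p = 0.0647). PSMC2 was also not called by edgeR with only the compared groups fitted (adjusted p = 0.0599).

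**Figure D2:**
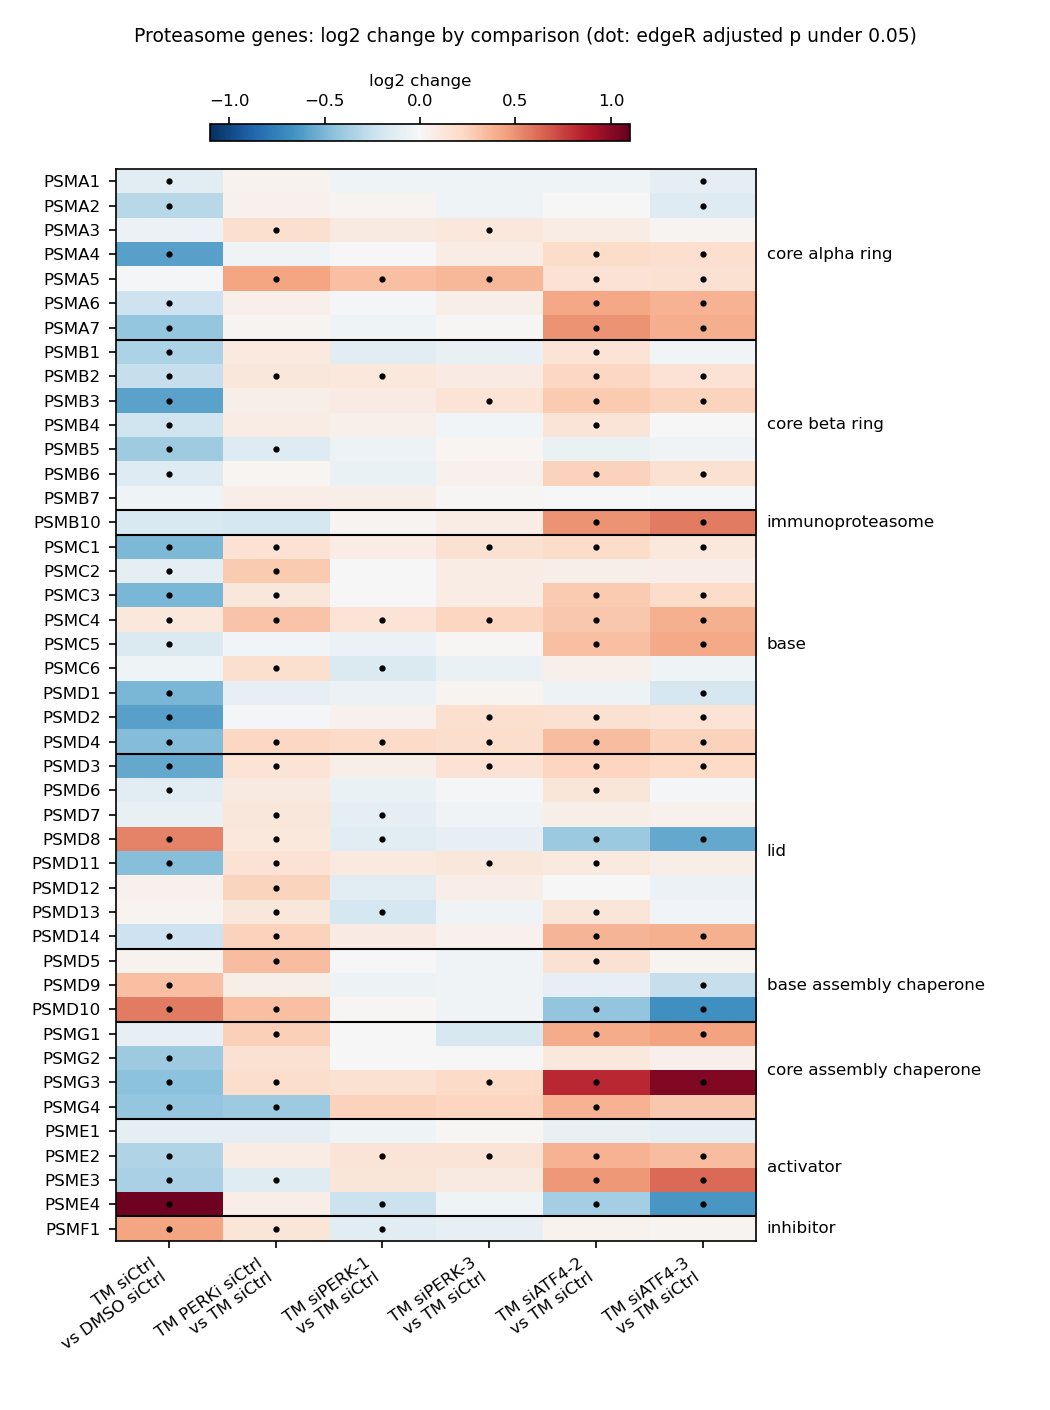
Log2 change (colour) of the 44 tested genes (rows, by class) in the 6 comparisons against a control group (columns), with a dot where edgeR's adjusted p was under 0.05. With tunicamycin most rows of the core and base were lower, and PSME4 with a log2 change of 1.07, PSMD10 with 0.57 and PSMD8 with 0.54 stood out as higher and were lower with both ATF4 siRNAs.

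Promoter sequences show which of these genes carry letters that NFE2L1 and NFE2L2 are known to bind, the core of the antioxidant response element, TGACNNNGC. RefSeq promoter entries (GRCh38.p14) matched 42 of the 48 genes by symbol, 8 of them with more than 1 entry. Searched on both strands in the 250 bases before each annotated start, and counted once per gene with a match in any entry, TGACNNNGC occurred in 13 of 42 proteasome genes (31.0%) and in 13.2% of the 27305 genes with an entry. Of the 10 genes just described, 5 had it, namely PSME4 and PSMD9, which rose, and PSMA4, PSMB3 and PSMD3, which fell. Their upstream bases follow, 5′ to 3′ on the strand of the gene, with TGACNNNGC or its reverse complement in capitals.
PSME4 (chr2:53970994-53971243, minus strand): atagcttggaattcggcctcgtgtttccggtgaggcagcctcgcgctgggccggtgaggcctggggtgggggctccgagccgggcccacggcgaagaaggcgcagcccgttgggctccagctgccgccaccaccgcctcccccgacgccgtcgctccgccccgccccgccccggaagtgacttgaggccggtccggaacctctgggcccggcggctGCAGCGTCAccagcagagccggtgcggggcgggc
PSMD9 (chr12:121888540-121888789, plus strand): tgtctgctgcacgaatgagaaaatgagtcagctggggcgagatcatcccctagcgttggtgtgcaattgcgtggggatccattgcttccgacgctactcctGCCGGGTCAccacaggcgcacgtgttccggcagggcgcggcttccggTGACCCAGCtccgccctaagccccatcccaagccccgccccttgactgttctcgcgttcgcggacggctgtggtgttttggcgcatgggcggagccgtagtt
PSMA4 (chr15:78540536-78540785, plus strand): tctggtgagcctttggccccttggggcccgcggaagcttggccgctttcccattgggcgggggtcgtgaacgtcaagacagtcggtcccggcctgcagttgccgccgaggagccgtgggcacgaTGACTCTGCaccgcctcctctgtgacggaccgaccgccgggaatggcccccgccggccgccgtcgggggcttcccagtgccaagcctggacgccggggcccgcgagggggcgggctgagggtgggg
PSMB3 (chr17:38752491-38752740, plus strand): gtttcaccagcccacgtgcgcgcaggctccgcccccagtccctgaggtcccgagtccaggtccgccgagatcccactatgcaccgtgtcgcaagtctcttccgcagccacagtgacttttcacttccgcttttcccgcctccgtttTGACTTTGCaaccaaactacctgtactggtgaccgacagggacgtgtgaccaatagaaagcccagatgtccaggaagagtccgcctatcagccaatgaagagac
PSMD3 (chr17:39980557-39980806, plus strand): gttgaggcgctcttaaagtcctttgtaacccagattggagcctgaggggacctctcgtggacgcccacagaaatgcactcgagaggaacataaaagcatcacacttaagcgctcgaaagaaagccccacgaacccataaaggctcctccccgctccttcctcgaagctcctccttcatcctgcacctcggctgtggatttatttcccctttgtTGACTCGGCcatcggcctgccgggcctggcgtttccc
The letters TGATGNAA of the C/EBP-ATF response element, which ATF4 is known to bind with a partner, were found in 0 of the 42 genes and in 3.89% of all genes. The full ER stress response element was found in 0 of the 42 and in 0.0916% of all genes. The core of the interferon-stimulated response element was found in 5 of the 42 genes (11.9%) and in 3.71% of all genes. In the windows printed only TGACNNNGC was found, so it overlapped with none of the others there. PSMA4 has 3 entries, of which 1 is printed, and it is among the 5 genes with the interferon-stimulated core, found in an entry not printed. A match in these windows describes letters and no binding.

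Both ATF4 siRNAs, set against TM siCtrl, raised many of the particle's genes and lowered PSME4, PSMD10 and PSMD8. With siATF4-2, 27 of the 44 genes rose and 3 fell, and over all genes tested 55.6% were called, 28.4% higher and 27.2% lower. With siATF4-3, 20 rose and 7 fell, where 61.9% of all genes were called, 31.2% higher and 30.7% lower. The median log2 change of the 44 genes was 0.16 with siATF4-2 and 0.07 with siATF4-3, against 0.00 over all genes in both comparisons. Of the 7 luminal markers, 4 were higher and 1 lower with siATF4-2, and 5 were higher and 1 lower with siATF4-3. The summed luminal markers were 3594.9 to 3851.6 CPM in TM siATF4-2 and 3835.6 to 4024.0 CPM in TM siATF4-3 libraries. The summed fibroblast markers were 14.7 to 23.12 CPM in TM siATF4-2 and 14.25 to 21.19 CPM in TM siATF4-3 libraries. The TM siCtrl ranges of both sums are given above, and the part of these markers in the result was not tested.

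By class, 9 of 14 core genes rose with siATF4-2 and 7 with siATF4-3. Of the 17 base and lid genes, 11 rose with siATF4-2 and 8 with siATF4-3. In the base, 6 of 9 rose with each siRNA (median log2 change 0.20 with siATF4-2 and 0.15 with siATF4-3). In the lid, 5 of 8 rose with siATF4-2 (median 0.12) and 2 of 8 with siATF4-3 (median 0.02). The siATF4-2 rises of PSMD6, PSMD11 and PSMD13 were lost in some settings, whereas PSMD3 and PSMD14 rose with both oligos in every setting tried. The siATF4-3 rise of the base ATPase PSMC1 was also lost in some settings. In the beta ring, 5 of 7 rose with siATF4-2 (median 0.15) and 3 of 7 with siATF4-3 (median -0.01). In the alpha ring, 4 of 7 rose with each. Differences between these classes were not tested. The genes that fell with siATF4-2 were PSME4, PSMD10 and PSMD8, and those that fell with siATF4-3 were the same 3 and PSMA1, PSMA2, PSMD1 and PSMD9. TM siCtrl is the control here and the treated group in the comparison with DMSO siCtrl, so the values below share those libraries and are given side by side.

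PSMG3, a chaperone of core assembly (chr7:1606970-1609668, minus strand, hg19), rose most. PSMG3 had 49.7, 48.1, 46.6 and 43.3 CPM in TM siATF4-2 and 55.7, 58.9, 54.1 and 46.0 CPM in TM siATF4-3, against 24.7, 27.1, 30.3 and 23.9 CPM in TM siCtrl libraries. All 8 knockdown libraries stood above the TM siCtrl libraries, and they also stood above the DMSO siCtrl libraries at 34.2, 35.7, 36.1 and 38.3 CPM. The log2 change was 0.83 ± 0.071 (adjusted p = 8.6e-13) with siATF4-2 and 1.02 ± 0.071 (adjusted p = 7.51e-16) with siATF4-3. PSMG3 was itself lower with tunicamycin (log2 change -0.45 ± 0.071, adjusted p = 5.49e-07).

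The activator PSME3, a nuclear cap that works without ubiquitin, had 232, 250.3, 246 and 211 CPM in TM siATF4-2 and 262, 257, 268 and 249.6 CPM in TM siATF4-3, against 163, 172, 172 and 166 CPM in TM siCtrl libraries. None of the knockdown libraries overlapped with TM siCtrl, and the log2 change was 0.48 ± 0.051 (adjusted p = 1.39e-10) with siATF4-2 and 0.62 ± 0.051 (adjusted p = 7.95e-14) with siATF4-3. In the alpha ring, PSMA7 averaged 175 ± 8.99 CPM in TM siATF4-2 and 164 ± 10.4 CPM in TM siATF4-3, against 124 ± 2.17 CPM in TM siCtrl cells (SD, n = 4 each), a called rise with both. The base ATPase PSMC5, whose exons overlap the gene FTSJ3, averaged 194 ± 6.04 CPM in TM siATF4-2 and 207 ± 5.79 CPM in TM siATF4-3, against 155 ± 1.77 CPM in TM siCtrl cells. The lid deubiquitinase PSMD14 averaged 100.3 ± 2.16 CPM in TM siATF4-2 and 101 ± 6.80 CPM in TM siATF4-3, against 77.3 ± 3.16 CPM in TM siCtrl cells. These last rises were also called with both oligos.

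PSMD10 had 72.3, 80.7, 76.1 and 85.9 CPM in TM siATF4-2 and 65.5, 64.9, 69.3 and 66.7 CPM in TM siATF4-3 libraries, below the TM siCtrl libraries given above. The log2 change was -0.43 ± 0.052 (adjusted p = 3.49e-09) with siATF4-2 and -0.67 ± 0.053 (adjusted p = 2.8e-14) with siATF4-3. PSMD8 had 335, 293, 324 and 334 CPM in TM siATF4-2 and 293, 282, 293 and 290.1 CPM in TM siATF4-3 libraries. PSME4 had 185, 212, 179 and 208 CPM in TM siATF4-2 and 161, 168, 163 and 162 CPM in TM siATF4-3 libraries. No library of these groups overlapped with TM siCtrl, and the log2 change was -0.41 ± 0.043 (adjusted p = 1.19e-10) and -0.56 ± 0.043 (adjusted p = 1.58e-14) for PSMD8 and -0.38 ± 0.051 (adjusted p = 3.83e-08) and -0.64 ± 0.051 (adjusted p = 5.38e-14) for PSME4, in the order siATF4-2 and siATF4-3. The siATF4-3 means of PSMD10 and PSMD8 stood beside those of DMSO siCtrl at 66.6 ± 1.94 CPM against 71.4 ± 3.55 CPM for PSMD10 and 289.7 ± 5.32 CPM against 293 ± 5.92 CPM for PSMD8, in that order of groups. PSME4 averaged 164 ± 3.02 CPM in TM siATF4-3 and 121 ± 3.51 CPM in DMSO siCtrl cells. The ATF4 siRNA groups were not tested against DMSO siCtrl.

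The oligos against ATF4 differed between them in part. Set directly against siATF4-3, siATF4-2 gave higher levels of 8 genes and a lower level of 1, where 14.7% of all genes were called, 8.53% higher and 6.2% lower. PSME4 was higher in TM siATF4-2 than in TM siATF4-3 (log2 change 0.26 ± 0.052, adjusted p = 0.000399), and so was PSMD10 (log2 change 0.24 ± 0.054, adjusted p = 0.00153). The gene with the lower level was PSMG3 (log2 change -0.20 ± 0.068, adjusted p = 0.0468), whose groups overlapped. The ATF4 transcript was also higher in TM siATF4-2 than in TM siATF4-3 cells (log2 change 1.06 ± 0.16, adjusted p = 6.1e-05), and the part of that difference in these results was not tested. Without each library in turn, the count of higher genes ran from 5 to 8, with 5 without TM siATF4-2 replicate 1 or TM siATF4-3 replicate 2, and 4 were higher when only these groups were fitted.

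**Figure D3:**
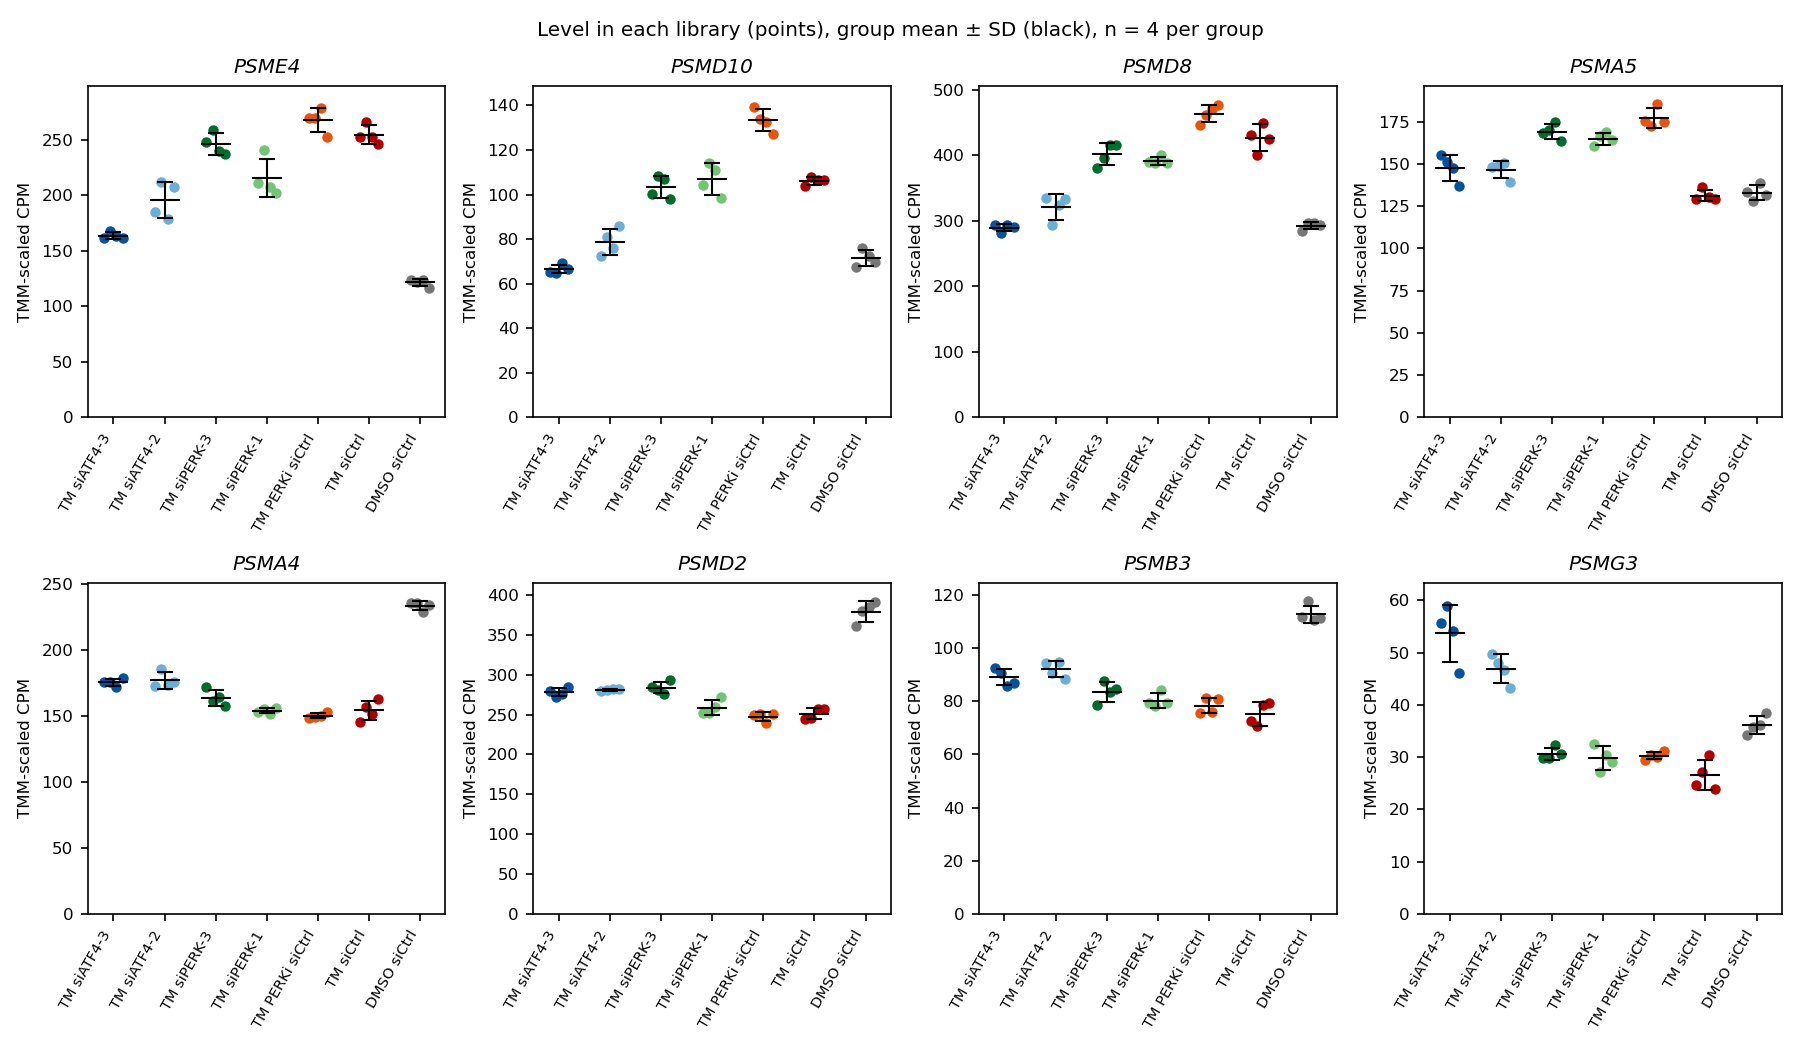
Level in TMM-scaled CPM (axis from 0) of 8 genes in each of the 28 libraries (points), with group mean and SD over 4 libraries in black. PSME4, PSMD10 and PSMD8 were high in TM siCtrl and lower in both ATF4 siRNA groups, and PSMG3 was highest in the ATF4 siRNA groups, at 43.3 to 58.9 CPM. PSMA5 was highest in the inhibitor and PERK siRNA groups and also stood above TM siCtrl in both ATF4 siRNA groups.

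With the PERK inhibitor GSK2606414, most subunits of the base and lid were higher and most of the core were not called. Of the 44 genes, 21 rose and 3 fell against TM siCtrl, and over all genes tested 35.7% were called, 18.2% higher and 17.5% lower. By class, 13 of 17 base and lid genes rose and 3 of 14 core genes rose. Among these, the base and lid rises of PSMC3, PSMC6, PSMD7, PSMD8 and PSMD13 and the core rise of PSMB2 were lost in some settings. The other rises of these classes held in every setting tried. The difference between the classes was not tested. The median log2 change of the 44 genes was 0.11, against -0.01 over all genes. Of the 7 luminal markers, 1 was higher and 4 were lower with the inhibitor. The summed luminal markers were 2577.4 to 2863.9 CPM in TM PERKi siCtrl libraries, below the TM siCtrl range. The part of these markers in the result was not tested.

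PSMA5, a subunit of the alpha ring (chr1:109941653-109969108, minus strand, hg19), rose most. PSMA5 had 176, 172, 186 and 175 CPM in TM PERKi siCtrl, against 129, 136, 130.4 and 129 CPM in TM siCtrl libraries. Every inhibitor library stood above every TM siCtrl library (log2 change 0.43 ± 0.043, adjusted p = 1.14e-10). PSMD5, another chaperone of base assembly, had 37.6, 39.1, 38.8 and 35.5 CPM in TM PERKi siCtrl, against 31.3, 31.2, 28.5 and 28.3 CPM in TM siCtrl libraries, again with no overlap (log2 change 0.34 ± 0.063, adjusted p = 4.24e-05). PSMD10 had 139, 134, 133 and 127 CPM in TM PERKi siCtrl libraries, all above the TM siCtrl libraries (log2 change 0.33 ± 0.051, adjusted p = 1.95e-06), whereas PSME4, with 270.0, 269.7, 279 and 253 CPM, was not called (log2 change 0.07 ± 0.05, adjusted p = 0.266). The base ATPases PSMC4 (log2 change 0.31 ± 0.045, adjusted p = 4.4e-07) and PSMC2 (log2 change 0.29 ± 0.041, adjusted p = 4.28e-07) rose as well.

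The 3 genes that fell with the inhibitor were PSMG4, PSMB5 and PSME3, all lower with tunicamycin too. PSMG4 had 4.57, 6.62, 5.98 and 7.46 CPM in TM PERKi siCtrl, against 6.89, 7.90, 7.62 and 10.4 CPM in TM siCtrl libraries, with overlap (log2 change -0.40 ± 0.15, adjusted p = 0.0372). PSMB5 had 129, 129.9, 138 and 145 CPM in TM PERKi siCtrl, against 144, 139, 156 and 159.9 CPM in TM siCtrl libraries, with overlap (log2 change -0.14 ± 0.05, adjusted p = 0.0238). Each of these calls was lost in some settings. PSMG4 missed the threshold without TM siCtrl replicate 4 (adjusted p = 0.188) and without TM PERKi siCtrl replicate 1 (adjusted p = 0.153) or 3 (adjusted p = 0.0883), and PSMB5 without TM siCtrl replicate 3 (adjusted p = 0.0846) or 4 (adjusted p = 0.107) and without TM PERKi siCtrl replicate 1 (adjusted p = 0.0909) or 2 (adjusted p = 0.0852). PSME3 missed it in 5 of 8 fits without a library, with adjusted p values up to 0.0944. With the method changed, PSME3 missed the threshold under RLE scaling (adjusted p = 0.0667 by edgeR) and by DESeq2 (adjusted p = 0.0739). PSMG4 missed it by limma-voom (adjusted p = 0.0535). Of the 21 rises, 13 held in every setting tried.

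The PERK siRNAs changed a minority of the proteasome genes. With siPERK-1, 5 of the 44 genes rose and 6 fell, where 26.4% of all genes were called, 13.1% higher and 13.3% lower, and with upper-quartile scaling 8 rose and 4 fell. With siPERK-3, 11 rose and 0 fell, where 26.8% of all genes were called, 13.1% higher and 13.7% lower. The median log2 change of the 44 genes was 0.00 with siPERK-1 and 0.04 with siPERK-3, against 0.00 over all genes in both. The numbers for siPERK-1 are thus near those of all genes. With siPERK-1, the genes that rose numbered 3 without TM siPERK-1 replicate 3 or 4, and those that fell numbered 3 without TM siCtrl replicate 3 or TM siPERK-1 replicate 4. With siPERK-3, the genes that rose numbered 7 without TM siCtrl replicate 1 or TM siPERK-3 replicate 4.

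PSMA5 was again the gene that rose most, with 161, 167, 169 and 164 CPM in TM siPERK-1 and 168, 170.1, 175 and 164 CPM in TM siPERK-3 libraries. All of these libraries stood above TM siCtrl, and the log2 change was 0.33 ± 0.043 (adjusted p = 1.32e-07) with siPERK-1 and 0.37 ± 0.043 (adjusted p = 1.41e-08) with siPERK-3. The rise of PSMA5 was not particular to these groups. It was also called, without overlap, with siATF4-2 (log2 change 0.16 ± 0.043, adjusted p = 0.00162) and siATF4-3 (log2 change 0.17 ± 0.043, adjusted p = 0.00074). PSMD4, a ubiquitin receptor of the base, had 73.1, 79.3, 82.3 and 74.3 CPM in TM siPERK-1 and 72.8, 78.4, 79.2 and 75.8 CPM in TM siPERK-3, against 67.0, 69.3, 67.1 and 64.0 CPM in TM siCtrl libraries. Its groups did not overlap, with a log2 change of 0.21 ± 0.053 (adjusted p = 0.00277) for siPERK-1 and 0.19 ± 0.053 (adjusted p = 0.00507) for siPERK-3. PSMC4 had 165, 162, 173 and 175 CPM in TM siPERK-1 and 180.3, 175, 187 and 174 CPM in TM siPERK-3, against 148, 148, 159 and 154 CPM in TM siCtrl libraries, with no overlap (log2 change 0.15 ± 0.045, adjusted p = 0.0131 for siPERK-1 and log2 change 0.24 ± 0.045, adjusted p = 0.000101 for siPERK-3). The siPERK-1 call of PSMC4 depended on replicate 4 of that group, since leaving it out gave an adjusted p = 0.0536.

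The 6 genes that fell with siPERK-1 were PSME4, PSMD13, PSMD8, PSMD7, PSMC6 and PSMF1. With siPERK-3, 0 genes were lower by edgeR after adjustment, 3 were lower at an unadjusted p under 0.05, 0 by DESeq2 or limma-voom, and 1 with RLE scaling. PSME4 had 211, 241, 208 and 202 CPM in TM siPERK-1 libraries, all below TM siCtrl (log2 change -0.24 ± 0.051, adjusted p = 0.000359), and 248, 259, 240.1 and 237 CPM in TM siPERK-3 libraries, which overlapped with TM siCtrl (log2 change -0.05 ± 0.051, adjusted p = 0.523). The lid subunit PSMD13 had 156, 148, 161 and 159.7 CPM in TM siPERK-1, against 172, 171, 182 and 189.5 CPM in TM siCtrl libraries, with no overlap (log2 change -0.19 ± 0.046, adjusted p = 0.00166). At an unadjusted p under 0.05, 1 gene was higher with siPERK-1 than with siPERK-3, again without a share of all genes beside it. Set directly against siPERK-3, siPERK-1 gave lower levels of 4 genes and a higher level of 0 by edgeR after adjustment. Over all genes 4.73% were called, 2.49% lower and 2.24% higher. The 4 genes were PSME4 (log2 change -0.19 ± 0.051, adjusted p = 0.0189), PSMD12 (log2 change -0.18 ± 0.052, adjusted p = 0.0299), PSMD13 (log2 change -0.15 ± 0.046, adjusted p = 0.0466) and PSMD2 (log2 change -0.13 ± 0.039, adjusted p = 0.0353). Without each library in turn, 0 to 2 genes were called lower.

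With tunicamycin, PSMB5 and PSMB6 of the constitutive catalytic subunits fell, and no call was made for PSMB7. Among the constitutive ones, PSMB5, of chymotrypsin-like activity, had 144, 139, 156 and 159.9 CPM in TM siCtrl, against 188, 194, 193 and 209 CPM in DMSO siCtrl libraries, with no overlap (log2 change -0.39 ± 0.049, adjusted p = 3.87e-09). PSMB6, of caspase-like activity, had 125, 122, 124 and 118 CPM in TM siCtrl, against 133, 141, 139.5 and 125 CPM in DMSO siCtrl libraries, with overlap (log2 change -0.14 ± 0.052, adjusted p = 0.0153). PSMB7, of trypsin-like activity, had 100.3, 101, 102 and 99.5 CPM in TM siCtrl, against 102, 108, 99.4 and 106 CPM in DMSO siCtrl libraries, with overlap and no call (log2 change -0.04 ± 0.042, adjusted p = 0.356, 95% interval -0.13 to 0.04). PSMB7 was called in 0 of the 6 comparisons against a control, as was the activator PSME1, and both have exons that overlap another gene. With the ATF4 siRNAs, PSMB6 rose (log2 change 0.25 ± 0.052, adjusted p = 8.77e-05 with siATF4-2 and log2 change 0.17 ± 0.053, adjusted p = 0.00483 with siATF4-3), and PSMB5 was not called (log2 change -0.07 ± 0.05, adjusted p = 0.226 with siATF4-2 and log2 change -0.04 ± 0.05, adjusted p = 0.548 with siATF4-3).

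Of the immunoproteasome subunits, PSMB10 alone passed the filter on low counts (chr16:67968407-67970780, minus strand, hg19). PSMB10 had 19.3, 15.1, 17.9 and 17.6 CPM in TM siCtrl, against 19.4, 20.3, 17.8 and 20.7 CPM in DMSO siCtrl libraries, with overlap and no call (log2 change -0.16 ± 0.09, adjusted p = 0.104). It had 22.9, 21.5, 28.6 and 25.5 CPM in TM siATF4-2 and 25.7, 29.8, 22.9 and 24.8 CPM in TM siATF4-3 libraries, all above TM siCtrl (log2 change 0.50 ± 0.09, adjusted p = 1.18e-05 with siATF4-2 and log2 change 0.57 ± 0.091, adjusted p = 8.57e-07 with siATF4-3). With the inhibitor it had 15.1, 13.8, 16.7 and 15.3 CPM, with overlap and no call (log2 change -0.20 ± 0.10, adjusted p = 0.113). PERK siRNAs left it at 17.9 ± 0.879 CPM in TM siPERK-1 and 18.5 ± 2.07 CPM in TM siPERK-3 cells, neither called against TM siCtrl.

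PSMB8 and PSMB9 lie in the MHC region and were near the limit of detection. PSMB8 had 6, 2, 5 and 4 counts in TM siCtrl and 12, 12, 9 and 16 counts in DMSO siCtrl libraries. PSMB9 had 5, 6, 5 and 5 counts in TM siCtrl and 9, 13, 7 and 5 counts in DMSO siCtrl libraries. Over all 28 libraries PSMB8 ran from 0 to 16 counts and PSMB9 from 1 to 13. With no filter on low counts, PSMB8 was lower with tunicamycin (log2 change -1.32 ± 0.43, adjusted p = 0.00767 by edgeR) and PSMB9 was not called (log2 change -0.51 ± 0.42, adjusted p = 0.35). Neither was called with an ATF4 siRNA in that fit, unlike PSMB10. The log2 change of PSMB8 was -0.63 ± 0.62 with siATF4-2 and -0.71 ± 0.63 with siATF4-3. That of PSMB9 was 0.26 ± 0.46 with siATF4-2 and 0.59 ± 0.45 with siATF4-3. Both genes are annotated on chromosome 6 and on 7 alternate haplotypes, and how reads that match several copies were counted is not given in the sources used here, so their low counts may be incomplete. TAP1, the peptide transporter gene that shares a promoter region with PSMB9, was measured in the same region and was not called with tunicamycin (log2 change 0.14 ± 0.10, adjusted p = 0.224). TAP1 averaged 28.4 ± 1.12 CPM in TM siATF4-2, 29.8 ± 3.31 CPM in TM siATF4-3, 26.3 ± 3.55 CPM in TM siPERK-1 and 28.8 ± 4.31 CPM in TM siPERK-3, against 26.98 ± 1.61 CPM in TM siCtrl cells, with no call. With the inhibitor it averaged 22.5 ± 2.49 CPM, a called fall (log2 change -0.27 ± 0.11, adjusted p = 0.0473), and it averaged 24.5 ± 3.53 CPM in DMSO siCtrl cells. PSMA8 had 0 counts in all 28 libraries and PSMB11 had 0 or 1.

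Ratios within a library compare each immunoproteasome subunit with the subunit it replaces and do not depend on scaling. Per kilobase, PSMB10 stood at 24.9 ± 3.68% of PSMB7 in TM siATF4-2 and 26.1 ± 2.95% in TM siATF4-3, against 17.5 ± 1.82% in TM siCtrl libraries (SD, n = 4 each). In DMSO siCtrl libraries it stood at 19.0 ± 0.715%. PSMB8 stood at 0.15 ± 0.0608% of PSMB5 in TM siCtrl and 0.289 ± 0.0407% in DMSO siCtrl libraries, and PSMB9 at 0.230 ± 0.0220% of PSMB6 in TM siCtrl and 0.299 ± 0.118% in DMSO siCtrl libraries. By two-sided exact permutation tests over 4 against 4 libraries, the difference of PSMB10 over PSMB7 with either ATF4 siRNA had p = 0.0286, the smallest the design allows. The same exact p = 0.0286 was found for PSMB8 over PSMB5 with tunicamycin and for PSMB9 over PSMB6 with the inhibitor. After adjustment over the 18 tests made, these exact tests had a lowest adjusted p of 0.129. With so few libraries a handful of ratios at the smallest p could not pass 0.05 after this adjustment, so the adjusted values do not tell whether the ratios differed.

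**Figure D4:**
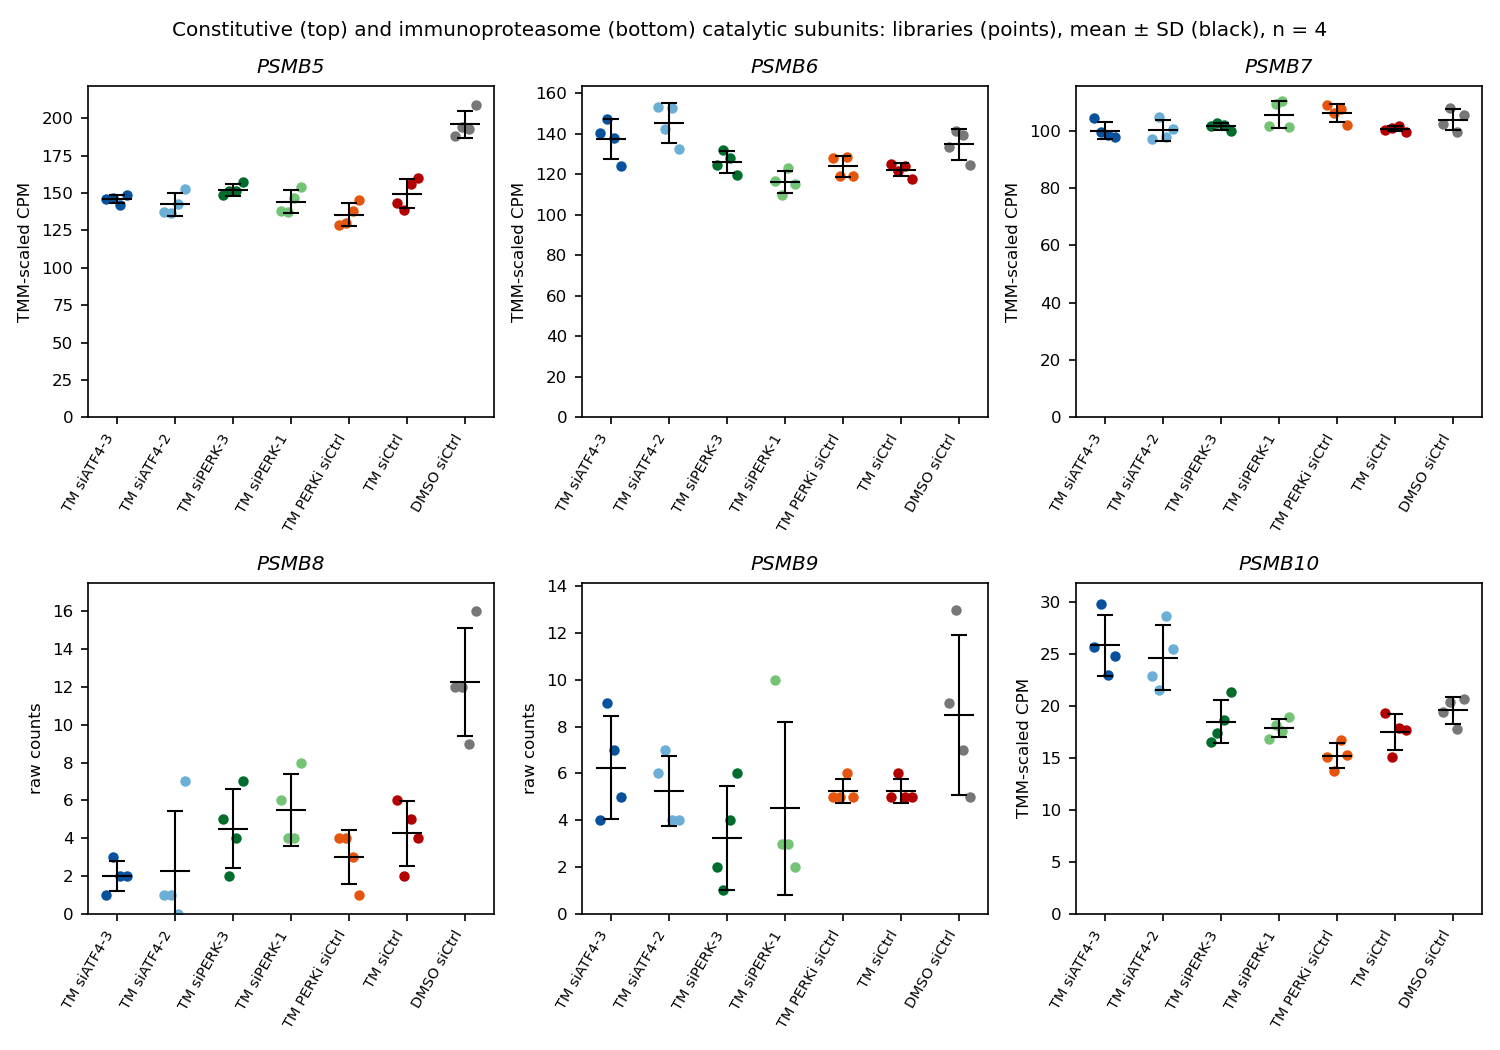
The constitutive catalytic subunits (top) and the immunoproteasome subunits (bottom) in each of the 28 libraries (points), with group mean and SD in black; PSMB8 and PSMB9 are in raw counts and the others in TMM-scaled CPM, all axes starting at 0. PSMB10 was highest in the ATF4 siRNA groups, at 21.5 to 29.8 CPM, and PSMB8 never exceeded 16 counts.

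The NFE2L1 transcript itself moved with tunicamycin and with the ATF4 siRNAs. NFE2L1 protein and its activity were not measured in these libraries, and the part of NFE2L1 in the subunit changes was not tested. The transcript had 881, 848, 879.5 and 889 CPM in TM siCtrl, against 346, 362, 333 and 331 CPM in DMSO siCtrl libraries (log2 change 1.35 ± 0.092, adjusted p = 2.42e-12). It had 342, 321, 291 and 461 CPM in TM siATF4-2 and 229, 244, 242 and 305 CPM in TM siATF4-3 libraries, all below TM siCtrl (log2 change -1.31 ± 0.093, adjusted p = 1.66e-11 with siATF4-2 and log2 change -1.78 ± 0.094, adjusted p = 3.3e-14 with siATF4-3). With the inhibitor it had 792 ± 7.98 CPM and was not called (log2 change -0.14 ± 0.09, adjusted p = 0.242). It averaged 729 ± 22.8 CPM in TM siPERK-1 (log2 change -0.26 ± 0.09, adjusted p = 0.035, a called fall) and 741 ± 26.1 CPM in TM siPERK-3 cells (log2 change -0.24 ± 0.091, adjusted p = 0.0536, not called).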

How the data were processed

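RNA from 28 LNCaP libraries, made with a strand-specific kit per the labels' protocols, had been turned by the authors into 6 deposited tables of raw counts per gene, summed over exons. The submitters' processing notes name TopHat2 2.1.0, featureCounts 1.5.0-p1, DESeq2 1.10.1 and the build hg19; the sources used here do not give the annotation, the strand setting or how reads matching several places were treated. Columns repeated between tables held identical values and were used once, and 1 line without a gene name, holding 0 counts, was left out. The replicates are 4 independent experiments by the series' design text, so p-values cover the spread between experiments on 1 cell line.

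Genes were filtered with edgeR's filterByExpr (minimum count 10, minimum total 15), scaled by TMM and fitted over all 28 libraries with 7 group means by edgeR 4.0.16 (quasi-likelihood, robust) in R 4.3.3. P-values were adjusted by Benjamini-Hochberg over 14314 genes in each of 8 comparisons and called under 0.05; ± after a log2 change is its standard error. Ratios of subunits used a prior count of 0.5 and two-sided exact permutation tests. Alternatives were RLE and upper-quartile scaling, no filter, DESeq2 1.42.0, limma-voom (limma 3.58.1), the replicate number as a block, only the compared groups, each library left out, and a ratio prior count of 2. Figures used matplotlib 3.10.9.

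The proteasome genes, the other gene lists and the motifs were chosen with earlier results of these data known. Values per library are given for the 3 catalytic pairs, the 5 genes most raised and most lowered among those called with tunicamycin, and the 2 most raised and most lowered in each other comparison with TM siCtrl; others were picked as examples after their values were seen. Library totals set the precision, and intervals cover these libraries only.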

Additional observations from a re-analysis of the deposited data

Results flagged for a closer look

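In groups of 4 libraries, 6 of 168 groups held a library whose gap to its nearest neighbour exceeded Dixon's critical share of the group's range, where chance gives about 1 in 20. PSMG4 had 15.3 CPM in DMSO siCtrl replicate 4, with the other libraries of that group at 9.21 to 10.03 CPM, and the tunicamycin call of PSMG4 was lost without that library. PSMF1 had 142 CPM in DMSO siCtrl replicate 3, with the others at 135.5 to 136.4 CPM. PSMD9 had 66.4 CPM in TM siPERK-1 replicate 1, with the others at 62.46 to 62.99 CPM. PSMD2 had 239 CPM in TM PERKi siCtrl replicate 3, with the others at 249.3 to 251.1 CPM. PSMB8 had 0.56 CPM in TM siATF4-2 replicate 4, with the others at 0 to 0.0818 CPM, and PSMB9 had 0.615 CPM in TM siPERK-1 replicate 1, with the others at 0.1544 to 0.2185 CPM, both from at most 16 counts.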

How the results depend on the processing

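Of the calls with tunicamycin, 5 of 6 rises and 23 of 27 falls held in every alternative, as did 22 of 27 rises and 3 of 3 falls with siATF4-2 and 19 of 20 rises and 5 of 7 falls with siATF4-3. With the inhibitor 13 of 21 rises and 0 of 3 falls held, with siPERK-1 2 of 5 rises and 2 of 6 falls, and with siPERK-3 5 of 11 rises. For siPERK-1 against TM siCtrl, the genes that rose numbered 8 with upper-quartile scaling and 3 with no filter, against 5. For siPERK-3, 1 gene was lower with RLE or upper-quartile scaling, no filter, the replicate block or only the compared groups, against 0. For siATF4-2, 5 genes were lower with upper-quartile scaling, against 3. Between the PERK oligos, the lower genes numbered 1 with upper-quartile scaling, 2 with no filter and 2 with only the compared groups, against 4. Between the ATF4 oligos, 4 genes were higher with only the compared groups, against 8, and the lower genes numbered 2 with RLE, upper-quartile scaling, DESeq2 or the block, and 0 with no filter or only the compared groups, against 1. The ratio of PSMB8 to PSMB5 with the inhibitor changed sign with a prior count of 2, with a log2 difference of 0.116 against -0.0346. The cause of these shifts was not tested.

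Without each library in turn, the higher genes ranged from 5 to 6 and the lower from 26 to 28 with tunicamycin, from 16 to 22 and 1 to 3 with the inhibitor, from 3 to 7 and 3 to 6 with siPERK-1, and from 7 to 10 and 0 to 1 with siPERK-3. They ranged from 24 to 27 and 3 to 3 with siATF4-2, from 19 to 20 and 5 to 7 with siATF4-3, from 0 to 0 and 0 to 2 between the PERK oligos, and from 5 to 8 and 0 to 2 between the ATF4 oligos. Other scalings moved the median of all genes by at most 0.038 on the log2 scale. PSMB8 and PSMB9 had no more than 16 counts in any library, and the cause of their low counts was not tested.

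Libraries with the same replicate number resembled each other, and 27 of 28 libraries correlated best with their own number. Deviations of same-numbered libraries correlated at 0.0336 to 0.302, not all above the threshold of 0.1 set for pairing. Those of differently numbered libraries correlated at -0.189 to 0.119. The main fit left the replicate number out. With the replicate block, 6 genes rose and 28 fell with tunicamycin, 23 rose and 3 fell with the inhibitor, 7 rose and 7 fell with siPERK-1, 11 rose and 1 fell with siPERK-3, 27 rose and 3 fell with siATF4-2, and 21 rose and 7 fell with siATF4-3. Between the PERK oligos 0 were higher and 4 lower, and between the ATF4 oligos 10 were higher and 2 lower. Over all genes the block gave more calls than the main fit in every comparison. The share called was then 71.7% with tunicamycin, 40.6% with the inhibitor and 32.5% with each PERK siRNA. It was 59.2% with siATF4-2, 65.1% with siATF4-3, 8.35% between the PERK oligos and 20.2% between the ATF4 oligos.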

Other observations

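Genes that work with the proteasome moved in both directions. Over all genes tested, 69% were called with tunicamycin (34.3% higher and 34.7% lower), 35.7% with the inhibitor (18.2% higher and 17.5% lower), 26.4% with siPERK-1 (13.1% higher and 13.3% lower) and 26.8% with siPERK-3 (13.1% higher and 13.7% lower). With the ATF4 siRNAs, 55.6% were called with siATF4-2 (28.4% higher and 27.2% lower) and 61.9% with siATF4-3 (31.2% higher and 30.7% lower). The counts below stand against these shares, and no list was tested as a set. Of 16 partners and regulators, 7 rose and 8 fell with tunicamycin, 8 rose and 1 fell with the inhibitor, 7 rose and 4 fell with siATF4-2, and 7 rose and 6 fell with siATF4-3. With the PERK siRNAs, 2 rose and 5 fell with siPERK-1, and 2 rose and 3 fell with siPERK-3. ZFAND2A, a proteasome-binding protein induced by arsenite, rose with tunicamycin (log2 change 1.92 ± 0.081, adjusted p = 3.26e-23 by edgeR) and with the inhibitor (log2 change 0.82 ± 0.068, adjusted p = 1.23e-12). SHFM1, which encodes a small lid subunit outside the PSM names, rose with tunicamycin (log2 change 0.52 ± 0.057, adjusted p = 1.84e-10) and fell with siATF4-2 (log2 change -0.56 ± 0.058, adjusted p = 8.53e-11) and siATF4-3 (log2 change -0.998 ± 0.06, adjusted p = 1.02e-17). AKIRIN2, an import factor for nuclear proteasomes, fell with tunicamycin (log2 change -0.22 ± 0.094, adjusted p = 0.0389) and rose with siATF4-2 (log2 change 0.74 ± 0.093, adjusted p = 9.94e-09) and siATF4-3 (log2 change 0.67 ± 0.094, adjusted p = 6.67e-08).

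Of 15 genes of ubiquitin and substrate delivery, 4 rose and 5 fell with tunicamycin, 6 rose and 2 fell with the inhibitor, 6 rose and 0 fell with each PERK siRNA, 6 rose and 2 fell with siATF4-2, and 6 rose and 3 fell with siATF4-3. VCP, the ATPase that extracts ER proteins, rose with tunicamycin (log2 change 0.48 ± 0.043, adjusted p = 3.89e-13), the inhibitor (log2 change 0.52 ± 0.042, adjusted p = 6.69e-13), siPERK-1 (log2 change 0.43 ± 0.042, adjusted p = 4.12e-10) and siPERK-3 (log2 change 0.53 ± 0.042, adjusted p = 1.02e-12). Of 12 regulators and neighbours of the immunoproteasome genes, 4 rose and 2 fell with tunicamycin, 2 rose and 5 fell with the inhibitor, 1 rose and 1 fell with siPERK-1, and 2 rose and 2 fell with siPERK-3. With the ATF4 siRNAs, 2 rose and 5 fell with siATF4-2, and 1 rose and 5 fell with siATF4-3. IRF1, an interferon-response transcription factor, rose with tunicamycin (log2 change 1.86 ± 0.14, adjusted p = 1.68e-14) and fell with siATF4-2 (log2 change -1.06 ± 0.14, adjusted p = 2.65e-08) and siATF4-3 (log2 change -1.29 ± 0.14, adjusted p = 5.83e-10). TM siCtrl is shared by all of these comparisons.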
